A study of Mus musculus with 9 samples.

Results

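The genes described here encode lipid droplet coat and droplet-forming proteins, and 10 genes were chosen by symbol from the 54532 genes of the deposited tables. They were the 5 perilipins (Plin1, Plin2, Plin3, Plin4 and Plin5), the CIDE proteins Cidea and Cidec, the fat storage-inducing transmembrane proteins Fitm1 and Fitm2, and Bscl2, which encodes seipin. All 10 symbols were found once in the tables. The rule is a list of names with no threshold on a measured value, but the list was drawn up with earlier results of these data known.

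A lipid droplet is a core of neutral lipid, mostly triglyceride in an adipocyte, enclosed by a phospholipid monolayer. It forms in the membrane of the endoplasmic reticulum, where seipin and the FIT proteins act at the site of budding. Perilipins then cover its surface and govern the access of lipases, and CIDE proteins sit where droplets touch and pass lipid from the smaller to the larger one. White adipocytes are known for perilipin 1 and Cidec and for a single large droplet.

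The cells were 3T3-L1, a mouse line of embryonic fibroblast origin that turns into adipocytes under hormonal induction, and all groups came from this 1 line. Undifferentiated cells were kept at confluence for 3 days in growth medium (DMEM with bovine calf serum) and were not induced. Differentiated cells were confluent cells moved to an induction medium that held insulin (10 μg/mL), rosiglitazone (1 μM), IBMX (0.5 mM, a phosphodiesterase inhibitor) and dexamethasone (1 μM) with lysine added. Lysfree cells received the same induction medium made up without lysine during the differentiation period, to which fetal bovine serum was still added. The induction medium of both induced groups was a DMEM made without lysine and arginine, with arginine added back and fetal bovine serum. Base medium and serum thus also differed between Undifferentiated and both induced groups, and their part in the changes given as with differentiation was not tested. Poly A enriched RNA was sequenced from n = 3 libraries per group, 9 in all, and nothing in the labels states whether the 3 were separate cultures, so p-values measure the spread between these libraries only.

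Total counts were 15880144 to 21806693 per library (median 17784064). Libraries of 1 group differed by more than counting noise, with a chi-square per degree of freedom of 2.67 to 11.3 for pairs in general, and of 39.6 and 40.7 for the pairs that include Lysfree 1, so Lysfree 1 stood apart from Lysfree 2 and Lysfree 3. Markers of adipocytes and of preadipocytes moved with the groups. The summed level of 8 adipocyte markers was 295 to 390 FPKM (fragments per kilobase of exon at a common library size, a level corrected for gene length) in Undifferentiated, 3751 to 4011 in Differentiated and 205 to 276 in Lysfree, and Slc2a4, Retn, Lep and Adrb3 had at most 3 counts in every Lysfree library. The summed level of 8 preadipocyte or fibroblast markers was 2662 to 2954, 560 to 581 and 1623 to 1680 FPKM. A few genes carried much of these sums, which do not show a list moving together. Col1a1 had mean levels of 1887, 362 and 327 FPKM, Fn1 380, 58.6 and 719, and Ly6a 94.1, 71.3 and 390 in the 3 groups. Pdgfra (43.7, 6.94 and 12.9 FPKM) and Dlk1 (270, 30.3 and 65.2 FPKM) stayed below Undifferentiated in Lysfree. The largest part of the adipocyte sum in Lysfree was Lpl, with a mean of 188 FPKM. In bulk RNA, fewer adipocytes and less RNA of the marker genes per cell cannot be told apart.

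Each gene was tested with edgeR on the counts, within the 6 libraries of a comparison, and is called changed where the Benjamini-Hochberg adjusted p was under 0.05 and the change at least 2-fold. By this rule 21.8% of the 24402 genes tested changed in Differentiated vs. Undifferentiated, 18.7% of 24130 in Lysfree vs. Differentiated and 14.3% of 23994 in Lysfree vs. Undifferentiated. Log2 fold changes are given with their standard error.

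The starts of 4 genes are shown because, among the 7 members measured at 1 FPKM or more in a group, they had the largest falls in Lysfree vs. Differentiated or, for Plin2, the highest level in Lysfree. They are RefSeq promoter windows on GRCm38.p6, all on the minus strand and written 5′ to 3′ in the direction of transcription, from 250 bases before the annotated start to 20 bases after it. Their positions are chr7:79732757-79733026 for Plin1, chr6:113434745-113435014 for Cidec, chr17:56109763-56110032 for Plin4 and chr4:86670040-86670309 for Plin2. Capitals mark matches to the motifs described next.
Plin1: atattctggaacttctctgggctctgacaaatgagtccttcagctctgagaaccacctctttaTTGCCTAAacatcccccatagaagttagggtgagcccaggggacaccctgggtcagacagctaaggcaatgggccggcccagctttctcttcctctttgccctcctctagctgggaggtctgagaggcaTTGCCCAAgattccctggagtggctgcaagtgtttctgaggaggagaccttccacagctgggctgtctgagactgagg
Cidec: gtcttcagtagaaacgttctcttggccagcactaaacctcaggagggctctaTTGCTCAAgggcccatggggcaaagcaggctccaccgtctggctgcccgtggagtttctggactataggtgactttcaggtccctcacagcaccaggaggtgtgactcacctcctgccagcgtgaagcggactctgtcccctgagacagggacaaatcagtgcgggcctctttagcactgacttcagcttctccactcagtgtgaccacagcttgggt
Plin4: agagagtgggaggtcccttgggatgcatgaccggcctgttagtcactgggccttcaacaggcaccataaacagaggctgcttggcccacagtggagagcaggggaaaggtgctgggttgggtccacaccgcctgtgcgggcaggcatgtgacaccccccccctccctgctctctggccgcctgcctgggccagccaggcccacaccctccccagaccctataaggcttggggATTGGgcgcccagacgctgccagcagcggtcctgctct
Plin2: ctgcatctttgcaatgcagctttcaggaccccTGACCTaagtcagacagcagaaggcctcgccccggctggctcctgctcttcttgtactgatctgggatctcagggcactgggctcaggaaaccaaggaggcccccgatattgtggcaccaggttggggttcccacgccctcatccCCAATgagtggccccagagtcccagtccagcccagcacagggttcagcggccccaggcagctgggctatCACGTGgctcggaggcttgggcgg

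The letters searched on both strands were AGGTCA (the core bound by nuclear receptors), its direct repeat DR1 as bound by PPARs (which can overlap with AGGTCA), TTGCNNAA (a C/EBP core), CACGTG (an E-box), TGACGTCA (a cyclic AMP element), ACANNNTGT (a glucocorticoid receptor core), TATAAA and CCAAT. Plin1 held TTGCNNAA at 187 and 58 bases before its start, and Cidec held it once, 198 bases before the start shown. Plin2 held the reverse complement of AGGTCA at 218 bases, CCAAT at 73 bases and CACGTG at 4 bases before its start, and Plin4 held the reverse complement of CCAAT 18 bases before its start. Over the 13 windows found for 9 of the 10 members, TTGCNNAA occurred in 2, against 10.8% of 32851 windows of the same length, CACGTG in 1 (7.15%), AGGTCA in 4 (16.3%) and CCAAT in 5 (37.4%). The Cidec window shown lies inside the annotated gene, chr6:113424634-113435760. The other Cidec window, chr6:113435711-113436010, spans the 5′ end of the gene and held no match. None of the 13 held the direct repeat (0.381% of all windows), TGACGTCA (1.79%), ACANNNTGT (6.85%) or TATAAA (13.6%). A match describes letters only.

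**Figure D1:**
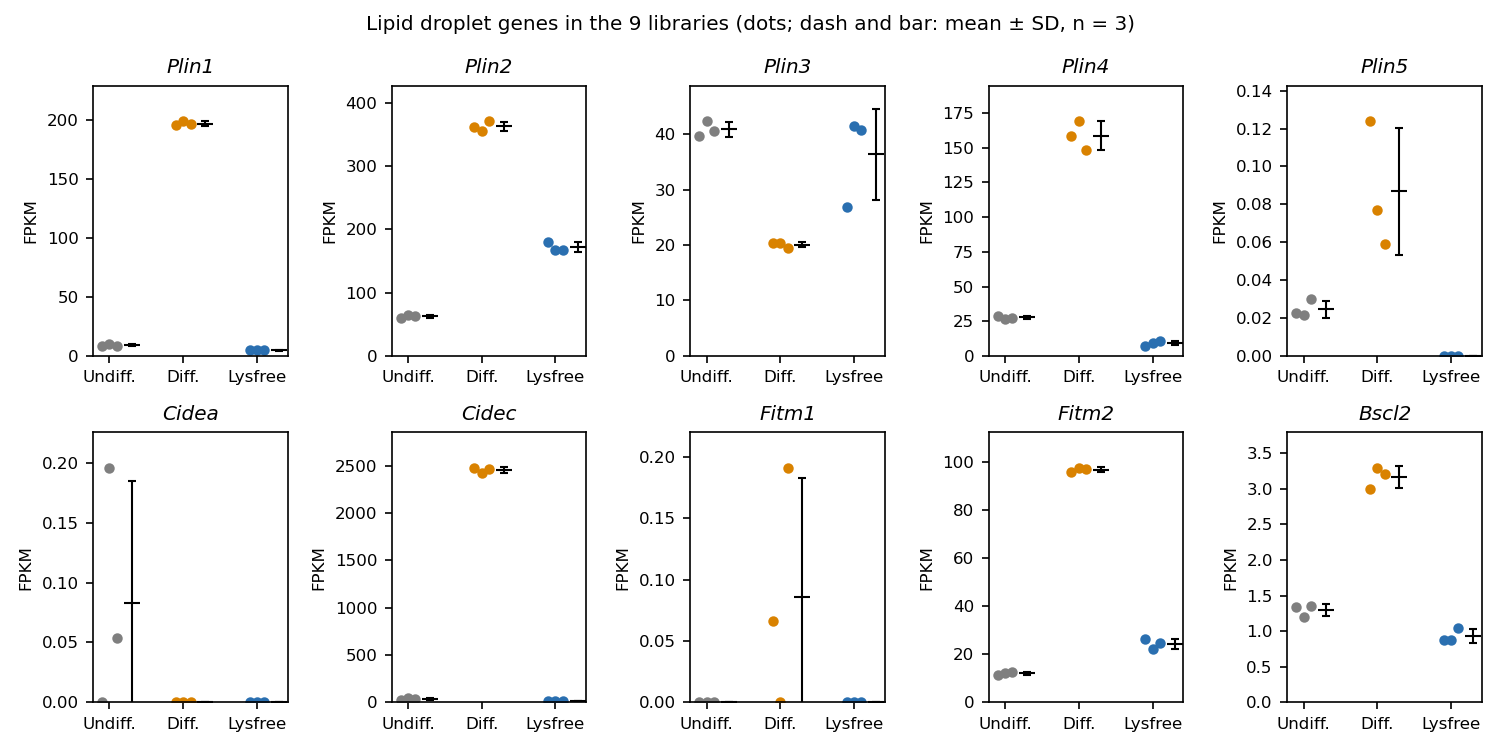
Level in FPKM (vertical axis, linear and separate for each gene) of the 10 genes in the 9 libraries, with a dot per library and a dash and bar for the mean ± SD (n = 3) of each group. Plin1, Plin4, Cidec and Bscl2 were highest in Differentiated and lowest in Lysfree, Plin2 and Fitm2 lay between the other groups in Lysfree, Plin3 was lowest in Differentiated, and Plin5, Cidea and Fitm1 rest on at most 5 reads in any library.

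Of the 10 genes, 7 were measured at 1 FPKM or more in at least 1 group and 3 were near 0 throughout. In Differentiated the order of levels was Cidec, Plin2, Plin1, Plin4, Fitm2, Plin3 and Bscl2, and no neighbours in that order overlapped. In Undifferentiated Plin2 stood first, and Plin3 (39.7 to 42.3 FPKM) and Cidec (30.3 to 46.3 FPKM) overlapped in the next place. In Lysfree the order was Plin2, Plin3, Fitm2, Cidec, Plin4, Plin1 and Bscl2, with no overlap, although the lowest Plin3 library (26.9 FPKM) was close to the highest Fitm2 library (26.5 FPKM).

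Perilipin 1, the main coat protein of the adipocyte droplet, restrains lipolysis in the resting cell and permits it once phosphorylated. Plin1 (ENSMUSG00000030546, chr7:79720218-79732903, minus strand, 9 merged exons) measured 8.47, 10.4 and 8.66 FPKM in Undifferentiated, 195, 199 and 196 FPKM in Differentiated and 5.29, 4.66 and 4.69 FPKM in Lysfree. The groups did not overlap, and Lysfree lay below both others. The mean of Differentiated was 21.4 times that of Undifferentiated and 40.4 times that of Lysfree. The log2 fold change was 4.39 ± 0.06 in Differentiated vs. Undifferentiated and −5.27 ± 0.10 in Lysfree vs. Differentiated (adjusted p = 1.93e-19). In Lysfree vs. Undifferentiated it was −0.87 ± 0.13 (adjusted p = 7.37e-07), which misses the 2-fold rule, so Plin1 is not called there.

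Perilipin 4 coats small and newly formed droplets and is abundant in white adipose tissue. Plin4 (ENSMUSG00000002831, chr17:56100591-56109803, minus strand, 9 merged exons) measured 29.1, 26.7 and 27.6 FPKM in Undifferentiated, 158, 169 and 148 FPKM in Differentiated and 7.49, 9.29 and 10.4 FPKM in Lysfree. Every Lysfree library was under every Undifferentiated library, and every Differentiated library was over both groups. Plin4 rose by a log2 fold change of 2.48 ± 0.05 with differentiation. It fell in Lysfree against Differentiated (−4.06 ± 0.12, adjusted p = 1.51e-16) and also against Undifferentiated (−1.57 ± 0.11, adjusted p = 3.08e-13), 3.06-fold in mean FPKM. Of its exon bases, 17 are shared with Hdgfl2 on the opposite strand.

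Perilipin 5 couples droplets to mitochondria in oxidative tissue such as heart. Plin5 (ENSMUSG00000011305, chr17:56111601-56117596) is the neighbour of Plin4 on the same strand, with 1797 bases between them. Its counts were 1, 1 and 1 in Undifferentiated, 4, 3 and 2 in Differentiated and 0, 0 and 0 in Lysfree, so its level was far below that of Plin4 in every group. The 9 counts of Differentiated against 0 gave an adjusted p of 0.0361 in Lysfree vs. Differentiated, and this call was lost under 10 of the alternatives, among them DESeq2 and each omission of a Lysfree or Differentiated library. In the other comparisons the adjusted p was 0.312 and 0.294. A count of 0 allows up to 3 reads, a level of 0.0741 to 0.0818 FPKM in Lysfree.

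Perilipin 2 is the coat protein found in nearly all cells that store lipid, and its protein is degraded when not bound to a droplet. Plin2 (ENSMUSG00000028494, chr4:86648386-86670060, minus strand, 13 merged exons) measured 60.2, 63.9 and 63.5 FPKM in Undifferentiated, 362, 356 and 371 FPKM in Differentiated and 181, 167 and 168 FPKM in Lysfree. Lysfree lay between the other groups without overlap. Plin2 rose by 2.51 ± 0.05 with differentiation and stayed higher in Lysfree than in Undifferentiated (1.50 ± 0.10, adjusted p = 1.08e-14), 2.75-fold in mean FPKM. Lysfree vs. Differentiated gave −1.01 ± 0.08 (adjusted p = 4.14e-10), just past the 2-fold rule. That call was lost with library sizes alone as the scaling (−0.94), without Lysfree 2 (−0.998) and without Lysfree 3 (−0.999), with the direction unchanged.

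Perilipin 3 is a widely expressed coat protein that moves between cytosol and new droplets. Plin3 (ENSMUSG00000024197, chr17:56277476-56292873, minus strand, 9 merged exons) measured 39.7, 42.3 and 40.6 FPKM in Undifferentiated and 20.3, 20.4 and 19.5 FPKM in Differentiated. It was the member that fell with differentiation, by −1.05 ± 0.06 on the log2 scale (adjusted p = 2.74e-68). In Lysfree the libraries were split, at 26.9 FPKM in Lysfree 1 against 41.5 and 40.8 FPKM in Lysfree 2 and Lysfree 3. The change from Differentiated was 0.92 ± 0.13 (adjusted p = 4.26e-06), under the 2-fold rule, and 1.08 without Lysfree 1, when it is called. Against Undifferentiated it was −0.12 ± 0.12 (adjusted p = 0.501), and the sign turned without Lysfree 1 (0.030, adjusted p = 0.726).

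The CIDE protein Cidec, also known as FSP27, gathers at droplet contacts and is needed for large droplets in white adipocytes. Cidec (ENSMUSG00000030278, chr6:113424634-113435760, minus strand, 7 merged exons) measured 30.3, 46.3 and 33.7 FPKM in Undifferentiated, 2477, 2421 and 2458 FPKM in Differentiated and 13.9, 10.6 and 11.7 FPKM in Lysfree. In Differentiated it ranked 5 or 6 among 21915 protein-coding genes by FPKM and took 0.435% to 0.443% of all counts in a library. The mean of Differentiated was 66.7 times that of Undifferentiated and 204 times that of Lysfree. These were the widest differences among the 10 genes, at 6.03 ± 0.05 on the log2 scale with differentiation and −7.61 ± 0.11 in Lysfree vs. Differentiated (adjusted p = 7.09e-21). Cidec was also lower in Lysfree than in Undifferentiated (−1.56 ± 0.14, adjusted p = 3e-11).

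Cidea, the CIDE protein of brown adipocytes, was near 0 (ENSMUSG00000024526, chromosome 18). Its counts were 0, 5 and 1 in Undifferentiated and 0 in each of the 6 induced libraries, and it was not called in Differentiated vs. Undifferentiated (adjusted p = 0.111) or Lysfree vs. Undifferentiated (adjusted p = 0.147). Of 6 brown adipocyte markers, which summed to 0.260 to 3.45 FPKM per library, Ucp1 and Zic1 had at most 3 counts in every library and Dio2 was not called in any comparison. Elovl3 was called higher with differentiation and lower in Lysfree vs. Differentiated, at 0.0509 ± 0.0881, 0.815 ± 0.0845 and 0.207 ± 0.136 FPKM in Undifferentiated, Differentiated and Lysfree, and Prdm16 was called the same way at no more than 0.0518 FPKM in any library. Cox8b was called lower in both induced groups than in Undifferentiated, at 2.01 ± 1.13, 0.580 ± 0.436 and 0.0971 ± 0.168 FPKM.

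The FIT proteins act in the endoplasmic reticulum membrane, FIT1 mainly in muscle and FIT2 in most tissues, where it is needed for droplets to bud into the cytosol. Fitm2 (ENSMUSG00000048486, chr2:163466379-163472629, minus strand, 2 merged exons) measured 11.6, 12.0 and 12.7 FPKM in Undifferentiated, 95.6, 97.6 and 97.2 FPKM in Differentiated and 26.5, 22.4 and 24.6 FPKM in Lysfree. As with Plin2, Lysfree lay between the other groups without overlap. Fitm2 rose by 2.97 ± 0.06 with differentiation, fell in Lysfree vs. Differentiated (−1.92 ± 0.09, adjusted p = 2.6e-13) and was higher in Lysfree than in Undifferentiated (1.06 ± 0.11, adjusted p = 4.65e-10). The last call was lost without Lysfree 1 (0.98). The antisense gene 2310001K24Rik shares 227 of the exon bases of Fitm2 (5.72%) and itself measured 0.197, 2.19 and 0.401 FPKM in the mean of Undifferentiated, Differentiated and Lysfree.

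Fitm1 (ENSMUSG00000022215, chr14:55575617-55576954, plus strand) had 1, 0 and 3 counts in Differentiated and 0 in the 6 other libraries, and it was not called in Differentiated vs. Undifferentiated (adjusted p = 0.152) or Lysfree vs. Differentiated (adjusted p = 0.194). Of 8 muscle markers, Myod1, Myog, Myh3, Ckm and Mb had at most 3 counts in every library, and Acta1 and Tnnt3 were not called in any comparison. Des measured 2.60 ± 0.368, 3.32 ± 0.568 and 1.07 ± 0.228 FPKM in Undifferentiated, Differentiated and Lysfree and was called lower in Lysfree than in Differentiated (−1.57 ± 0.19) and Undifferentiated (−1.23 ± 0.20).

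Seipin, encoded by Bscl2, forms a ring in the endoplasmic reticulum at the junction with the growing droplet, and its loss causes congenital lipodystrophy. Bscl2 (ENSMUSG00000071657, chr19:8837467-8848683, plus strand, 9 merged exons) was the lowest of the 7 genes measured. It reached 1.35, 1.20 and 1.36 FPKM in Undifferentiated, 2.99, 3.30 and 3.21 FPKM in Differentiated and 0.878, 0.880 and 1.05 FPKM in Lysfree. Bscl2 rose by 1.26 ± 0.12 with differentiation (adjusted p = 2.49e-25) and fell in Lysfree vs. Differentiated (−1.69 ± 0.15, adjusted p = 6.42e-09). Lysfree vs. Undifferentiated gave −0.42 ± 0.19 (adjusted p = 0.0779). Of its 5897 exon bases, 637 (10.8%) are shared with Gng3 on the opposite strand or AC129217.1, and the strand setting of the counting was not given in the sources used here, so reads of the shared bases could belong to either gene.

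**Figure D2:**
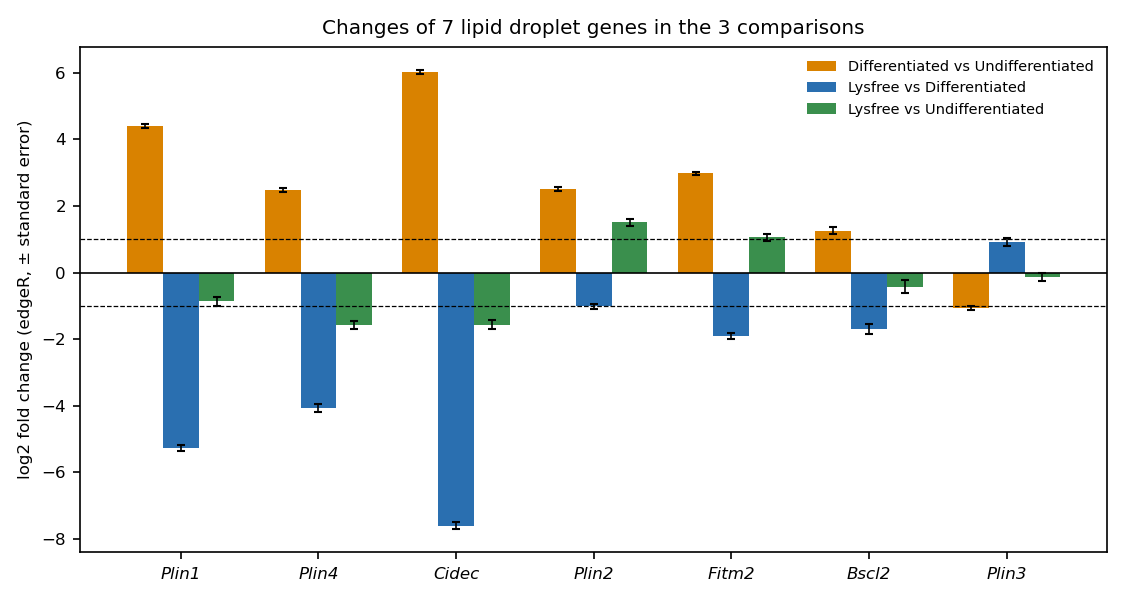
Log2 fold change from edgeR (vertical axis, bars, with standard errors) of the 7 genes measured at 1 FPKM or more in a group, in the 3 comparisons, with dashed lines at a 2-fold change. Cidec, Plin1 and Plin4 had the largest falls in Lysfree vs. Differentiated, Plin2 and Fitm2 stayed above Undifferentiated in Lysfree by 1.50 and 1.06, and Plin3 had the opposite sign to the other 6 genes in the first 2 comparisons.

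In Differentiated vs. Undifferentiated 7 of the 10 genes were called, 6 higher and 1 lower, where 10.4% of all genes tested were called higher and 11.4% lower. In Lysfree vs. Differentiated 7 of 9 tested were called, all lower, against 10.5% of all genes called lower and 8.14% called higher. They include Plin5 with its 9 counts, and Cidea had no count to test. In Lysfree vs. Undifferentiated 4 of 9 were called, with Plin2 and Fitm2 higher (5.52% of all genes) and Plin4 and Cidec lower (8.76%). The median log2 fold change of the members tested was 2.50, −3.61 and −0.87 in the 3 comparisons, and that of all genes tested was 0.019, −0.058 and −0.015. Over the 7 members measured at 1 FPKM or more in a group it was 2.51, −1.92 and −0.42, since the value of −3.61 is that of Fitm1, fitted on 4 reads against 0. By overlap of FPKM alone, 7 members lay wholly higher in Differentiated than in Undifferentiated (26.2% of all genes) and Plin3 wholly lower (24.7%). In Lysfree vs. Differentiated 7 lay wholly lower (25.3%) and Plin3 wholly higher (21.3%), and in Lysfree vs. Undifferentiated Plin2 and Fitm2 lay wholly higher (20.2%) and 5 members wholly lower (23.2%). The counts of 7, 7 and 5 each include Plin5, which had at most 4 reads in any library. Each pair of comparisons shares 3 libraries, so their values are not independent. In Differentiated vs. Undifferentiated the fitted p of Plin1, Plin2, Plin4, Cidec and Fitm2 was too small for the software to hold, and edgeR found no spread of dispersion between genes beyond its trend in that comparison. With edgeR's expression filter their adjusted p was 1.38e-13, 2.13e-13, 9.66e-13, 8.63e-13 and 1.38e-13.

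The level of a Lysfree library was also placed on a scale where the mean of Undifferentiated is 0% and that of Differentiated is 100%, in FPKM. Plin2 kept 36.4% ± 2.56 (SD, n = 3) of its rise and Fitm2 kept 14.6% ± 2.46. Plin1 (−2.30% ± 0.189), Cidec (−1.02% ± 0.0700), Plin4 (−14.3% ± 1.14) and Bscl2 (−19.5% ± 5.24) lay below the Undifferentiated level. These values show 4 genes under the start of the scale and 2 well inside it. Each value is divided by the rise of its gene, so the values do not rank the falls below Undifferentiated. In mean FPKM Plin4 and Cidec were 3.06-fold and 3.05-fold lower than Undifferentiated, and both were called. Plin1 and Bscl2 were 1.88-fold and 1.39-fold lower, and neither was called. The SD covers the spread of the Lysfree libraries only. For Plin3, whose level fell, the 3 libraries ranged from −2.75% to 67.2% of the fall, and the mean of 21.7% became −1.06% without Lysfree 1.

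The perilipin transcripts were summed per library to describe the composition of the coat at the RNA level. The sum was 140 ± 2.99 FPKM in Undifferentiated, 738 ± 5.29 in Differentiated and 222 ± 1.65 in Lysfree (SD, n = 3 each). Plin2 made up 44.5% ± 0.725 of it in Undifferentiated, 49.1% ± 1.31 in Differentiated and 77.4% ± 4.01 in Lysfree, so it was the most abundant perilipin transcript in each group. Plin1 made up 6.54% ± 0.639, 26.7% ± 0.0958 and 2.20% ± 0.176, and Plin4 19.8% ± 1.27, 21.5% ± 1.26 and 4.08% ± 0.643. Plin3 went from 29.1% ± 0.345 in Undifferentiated to 2.72% ± 0.0574 in Differentiated and was 16.4% ± 3.60 in Lysfree, with 12.2% in Lysfree 1 and 18.6% and 18.2% in the other two. The ratio of Plin2 to Plin1 was 6.85 ± 0.637, 1.84 ± 0.0495 and 35.3 ± 0.952, and its libraries did not overlap between groups. No test was made of these shares, which are tied to each other by their sum.

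**Figure D3:**
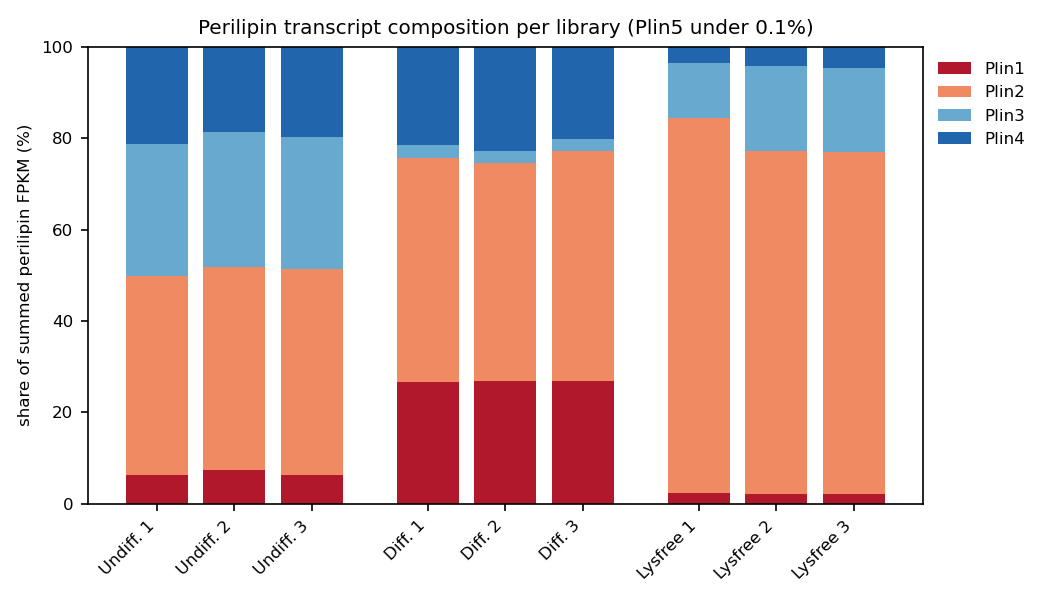
Share of each perilipin in the summed perilipin FPKM (vertical axis, percent, from 0 to 100) in each of the 9 libraries. Plin2 took 75.0% to 82.0% in Lysfree against 47.8% to 50.4% in Differentiated, and Plin1 took 26.6% to 26.7% in Differentiated against at most 7.27% elsewhere.

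Genes with the most similar pattern were sought among 11623 genes by the root mean square difference (RMS) of log2(FPKM + 0.1) over the 9 libraries, each gene centred on its mean. Such likeness is a description over 9 libraries that share 3 conditions. Nearest to Plin1 were Pcx (RMS 0.17), Rgcc (0.19) and Arxes2 (0.21), and nearest to Plin4 were Armcx4 (0.13), Col15a1 (0.14) and Cebpa (0.19). Nearest to Cidec were Mrap (0.20), Sema3g (0.41) and Gpd1 (0.42), and Plin1 came at place 27. By Pearson correlation over the 9 libraries, Plin1 was at place 4 for Cidec (r = 0.999), and Mrap, Gpd1 and Sema3g were at places 7, 49 and 71. The RMS grows with the size of the change, so it is not compared between members.

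Nearest to Plin2 were Pgk1 (0.10), Rrm2 (0.11) and Ldha (0.13), none of them a droplet gene. Pgk1 measured 235 ± 6.87, 1430 ± 40.7 and 585 ± 13.8 FPKM and Ldha 146 ± 8.30, 997 ± 21.1 and 391 ± 13.9 FPKM in Undifferentiated, Differentiated and Lysfree, so these too lay between the other groups in Lysfree. Nearest to Fitm2 were Rasl12 (0.12), Tmcc3 (0.14) and Taldo1 (0.14), with Plin2 at place 100. Nearest to Plin3 were Zfp503 (0.069), Zfp93 (0.075) and Mnt (0.077), and Zfp503 had the same wide spread in Lysfree (30.8 ± 7.94 FPKM, against 15.9 ± 0.539 in Differentiated). Nearest to Bscl2 were the processed pseudogene Gm5417 (0.057), Mta3 (0.082) and Sema4b (0.092). These names depend on the measure, and with a pseudocount of 1 none of the 3 neighbours of Bscl2 remained among its nearest 3. By Pearson correlation, none of the 3 named for Cidec or for Plin2 remained.

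Other droplet genes were grouped by role, with lists chosen by function. Of 10 droplet lipolysis genes, 8 rose in Differentiated vs. Undifferentiated (10.4% of all genes) and 9 fell in Lysfree vs. Differentiated (10.5% of all genes), with none called in the opposite direction, and the median log2 fold change was 3.37 and −4.49. The largest rises with differentiation were G0s2 (6.64 ± 0.07), an inhibitor of the lipase ATGL, and Pnpla3 (4.31 ± 0.17), and the largest falls in Lysfree vs. Differentiated were again Pnpla3 (−6.69 ± 0.40) and G0s2 (−6.60 ± 0.17). Pnpla3 measured 0.705 ± 0.182, 14.1 ± 0.629 and 0.124 ± 0.215 FPKM in Undifferentiated, Differentiated and Lysfree, so its level in Lysfree was near 0. In Lysfree vs. Undifferentiated 2 rose, Hilpda (1.34 ± 0.13), another ATGL inhibitor, and Abhd5 (1.10 ± 0.10), the ATGL activator that perilipin 1 holds. In the same comparison 3 fell, led by the carboxylesterases Ces1d (−5.15 ± 0.20) and Ces1f (−4.73 ± 0.40). Of the list, 20% was thus called higher (5.52% of all genes) and 30% lower (8.76%). Hilpda measured 11.8 ± 0.478, 111 ± 4.56 and 28.9 ± 2.36 FPKM and Abhd5 10.7 ± 0.195, 67.6 ± 2.70 and 22.3 ± 1.07 FPKM in the 3 groups, so that both lay between the other groups in Lysfree, as Plin2 and Fitm2 did.

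Of 18 genes for droplet formation at the endoplasmic reticulum found among 21 listed, 5 rose and none fell with differentiation, led by Gpat3 (3.96 ± 0.07), which makes lysophosphatidic acid, and Agpat2 (3.91 ± 0.06), which makes phosphatidic acid. In Lysfree vs. Differentiated 6 fell and none rose, led by the phosphatidate phosphatase Lpin1 (−4.70 ± 0.10) and Agpat2 (−4.11 ± 0.10). Compared with Undifferentiated, Gpat3 rose in Lysfree (1.74 ± 0.13) and Lpin1 (−1.76 ± 0.13) and Lpin3 (−1.50 ± 0.46) fell, Lpin3 from 0.286 to 0.0978 FPKM. The share of the list called was 27.8%, 33.3% and 16.7% in the 3 comparisons, against 21.8%, 18.7% and 14.3% of all genes. The first and last shares are near those of all genes. By direction, 27.8% were called higher with differentiation (10.4% of all genes) and 33.3% lower in Lysfree vs. Differentiated (10.5%). The median of this list stayed near 0 in each comparison, at 0.35, −0.31 and 0.13, since 12 to 15 of its 18 genes were not called.

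Of 23 droplet surface enzymes and other surface proteins found, 9 rose and 3 fell with differentiation. The 2 largest rises were Acsl1 (5.27 ± 0.05), which activates fatty acids, and Lss (3.72 ± 0.06) of sterol synthesis, and the 2 largest falls were Mettl7a1 (−2.52 ± 0.11) and Hsd17b11 (−1.44 ± 0.08). In Lysfree vs. Differentiated 9 fell, led by Acsl1 (−5.71 ± 0.11) and Nsdhl (−4.23 ± 0.10), and Hsd17b11 rose (1.16 ± 0.12). Against Undifferentiated, Acsl4 rose in Lysfree (1.62 ± 0.12) and Mettl7a1 (−1.81 ± 0.14) and Nsdhl (−1.07 ± 0.14) fell. These 3 are 13% of the list, near the 14.3% of all genes called in that comparison. Of the same list, 52.2% was called with differentiation (21.8% of all genes) and 43.5% in Lysfree vs. Differentiated (18.7%).

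Of 23 genes for droplet contacts, fusion and turnover found, 3 rose and 3 fell with differentiation (26.1% called, against 21.8% of all genes), 4 rose and 1 fell in Lysfree vs. Differentiated (21.7%, against 18.7%) and 1 rose in Lysfree vs. Undifferentiated (4.35%, against 14.3%). The first 2 shares are near those of all genes. Clstn3, which has an adipocyte form that acts on droplet size, rose (4.57 ± 0.14) and fell in Lysfree vs. Differentiated (−5.55 ± 0.19). Vps13c, a lipid transfer protein, was the next largest rise with differentiation (1.10 ± 0.07). The lysosomal membrane protein gene Lamp2 (−2.02 ± 0.05) and the phospholipase gene Pld1 (−1.95 ± 0.13) fell with differentiation and were among the 4 that rose in Lysfree vs. Differentiated (1.85 ± 0.13 and 1.87 ± 0.16). In Lysfree vs. Undifferentiated the chaperone gene Hspa8 rose (1.14 ± 0.09) and the other 22 were not called.

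**Figure D4:**
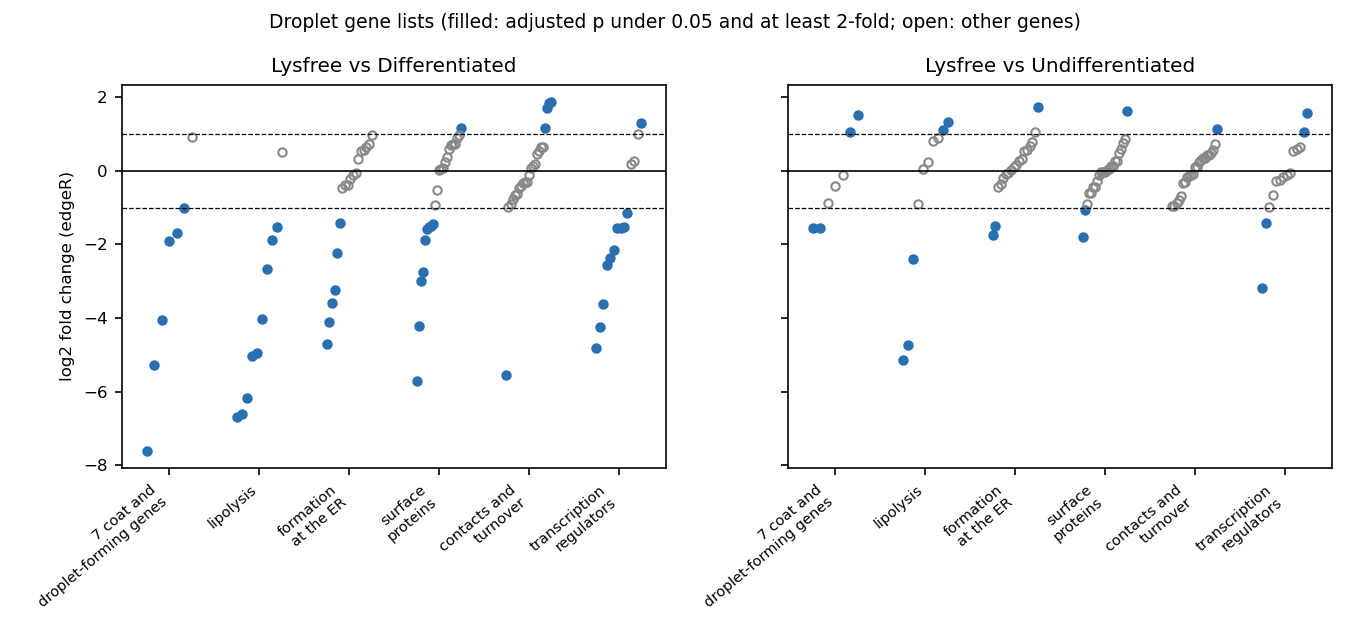
Log2 fold change from edgeR (vertical axis) of each gene in the droplet lists (horizontal axis), in Lysfree vs. Differentiated and in Lysfree vs. Undifferentiated, with filled dots for genes called and open dots for other genes. In the first panel 9 of 10 lipolysis genes lie below the lower 2-fold line and 18 of 23 contact genes are open, and in the second panel 20 of 23 surface genes and 22 of 23 contact genes are open.

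Of 14 transcription regulators of droplet genes, 9 rose and none fell with differentiation, the largest being the coactivator Ppargc1b (4.26 ± 0.11) and the oxysterol receptor Nr1h3 (2.89 ± 0.08). The share of this list called was 64.3%, 78.6% and 28.6% in the 3 comparisons, against 21.8%, 18.7% and 14.3% of all genes. In Lysfree vs. Differentiated 10 fell, led by Mlxipl (−4.82 ± 0.42), a glucose-responsive factor, and Cebpa (−4.25 ± 0.13), and Cebpd rose (1.30 ± 0.15). Mlxipl was low throughout, at 0.217 ± 0.118, 0.704 ± 0.0474 and 0.0221 ± 0.0212 FPKM in Undifferentiated, Differentiated and Lysfree. Ppargc1a (1.58 ± 0.15) and Cebpd (1.04 ± 0.13) rose in Lysfree vs. Undifferentiated and Mlxipl (−3.19 ± 0.61) and Cebpa (−1.43 ± 0.14) fell. Cebpa was also among the 3 genes nearest to Plin4, at 22.9 ± 2.76, 164 ± 7.07 and 8.23 ± 1.85 FPKM in the 3 groups. Pparg, the target of rosiglitazone, measured 13.7 ± 1.21, 51.9 ± 2.02 and 8.47 ± 1.72 FPKM, and was not called in Lysfree vs. Undifferentiated (−0.65 ± 0.13, adjusted p = 0.000154, under 2-fold).

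The marker genes gave the following counts beside these results. Of the 8 adipocyte markers, 7 rose with differentiation (10.4% of all genes). In Lysfree, 8 fell vs. Differentiated (10.5%) and 5 fell vs. Undifferentiated (8.76%). The marker that did not rise, Cfd, measured 77.0 ± 20.7, 48.5 ± 2.78 and 1.62 ± 0.243 FPKM in the 3 groups. Lpl was at 146 ± 1.47, 424 ± 2.65 and 188 ± 43.7 FPKM, so its Lysfree mean was above that of Undifferentiated. Of the 8 preadipocyte or fibroblast markers, 7 fell with differentiation (11.4% of all genes) and 5 rose in Lysfree vs. Differentiated (8.14%). In Lysfree vs. Undifferentiated 1 rose (5.52%) and 4 fell (8.76%). Adiponectin (Adipoq) measured 57.8 ± 14.3, 933 ± 16.6 and 4.18 ± 0.704 FPKM and Fabp4 44.1 ± 13.1, 2445 ± 125 and 36.7 ± 3.37 FPKM in the 3 groups. Their part in the changes of the droplet genes was not tested. Markers of other cell types were low, and some moved with the groups. The 6 macrophage markers summed to 13.5 to 16.2 FPKM in Undifferentiated, 3.91 to 5.95 in Differentiated and 7.30 to 8.29 in Lysfree. These markers did not move together. Lyz2 was called in all 3 comparisons (−4.24 ± 0.18 with differentiation, 2.36 ± 0.27 in Lysfree vs. Differentiated and −1.88 ± 0.17 in Lysfree vs. Undifferentiated). Its mean levels were 13.3, 0.699 and 3.49 FPKM, most of the sum in Undifferentiated. With differentiation Cd68 rose (1.29 ± 0.21) and Csf1r fell (−1.83 ± 0.69). Cd68 had mean levels of 1.65, 4.12 and 4.40 FPKM in the 3 groups, and Csf1r 0.120, 0.0340 and 0.00352. Ptprc, Adgre1 and Itgam had at most 3 counts in every library. The 8 muscle markers summed to 2.64 to 3.32, 3.45 to 4.56 and 0.871 to 1.35 FPKM, the 4 endothelial markers to 0.0646 to 0.126, 0.0810 to 0.201 and 0.248 to 0.272 FPKM, and the 5 epithelial markers to 0.0833 to 0.545, 7.66 to 8.17 and 0.0115 to 0.0614 FPKM. Krt19, at a mean of 6.48 FPKM, made up most of the epithelial sum in Differentiated. Krt19, Krt8 and Krt18 were called higher with differentiation and lower in Lysfree vs. Differentiated. Epcam and Cdh1 had at most 3 counts in every library.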

How the data were processed

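RNA of 9 libraries of 3T3-L1 cells was measured, 3 per group, with groups taken from the sample labels. Per the labels, the reads were mapped to mm10 with HISAT2 2.0.5 and the processing notes also name featureCounts 1.5.0-p3. The annotation and the strand setting were not given in the sources used here. The authors deposited read counts per gene, not normalized, and FPKM, which equalled count over gene length and library total times a constant of 0.932 to 1.04 per library.

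Counts were tested with edgeR 4.0.16 (glmQLFit, glmQLFTest, TMM) in R 4.3.3, on the 6 libraries of each comparison and all genes with a count above 0, at an adjusted p under 0.05 and at least 2-fold. Standard errors are the log2 fold change over the square root of F. A group whose libraries each held 3 counts or fewer was taken as at the floor, a limit that covers counting error only. Exon overlaps came from GENCODE vM21 (GRCm38).

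The members and lists were chosen with earlier results of these data known. Named genes are the members, the 3 nearest in pattern to each (mean of at least 1 FPKM), up to 2 largest called rises and falls per list and comparison, and the markers. Abhd5, Hilpda, Pparg, Pgk1 and Ldha levels are given as examples. Alternatives were DESeq2, other scalings and filters, all libraries in 1 fit, a replicate block, calls by adjusted p alone, limma on log2 of FPKM with 0.1 or 1 added, and leaving out each replicate.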

Additional observations from a re-analysis of the deposited data

How the results depend on the processing

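For the 7 members above the floor, 325 of 336 values of their 21 log2 fold changes under the alternatives kept direction and side of the threshold. The rest were 7 that lost a call, 3 that gained one and 1 that turned sign (Plin3 in Lysfree vs. Undifferentiated without Lysfree 1, with −0.23 to 0.030 over the omissions of 1 replicate). Limma on log2(FPKM + 1), on which fold changes of low genes are understated, ended the calls of Bscl2 (0.86) and Plin3 (−0.99) with differentiation and of Fitm2 in Lysfree vs. Undifferentiated (0.96). Dropping the fold threshold added Plin1 in Lysfree vs. Undifferentiated and Plin3 in Lysfree vs. Differentiated. In Differentiated vs. Undifferentiated, Lysfree vs. Differentiated and Lysfree vs. Undifferentiated, genes called were 3488, 2891 and 2244 with at least 10 counts in every library, 2726, 2198 and 1474 with limma on log2(FPKM + 1), and 11260, 9280 and 8428 without the fold threshold. Leaving out 1 replicate gave 5037 to 5161, 4120 to 4485 and 3093 to 3448 genes and 7, 5 to 7 and 3 to 4 members, and moved the share of the rise kept by Plin1 to −2.49% to −1.96% and by Cidec to −1.16% to −0.823%. The deviations of same-numbered libraries correlated by −0.0849 to 0.116, so the numbers were not taken to pair the samples, and a replicate block gave 4837, 4173 and 3179 genes and 7, 6 and 4 members. Depth limits Plin5, Cidea and Fitm1, for which 3 reads or fewer cannot be told from 0.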
